A study of Rattus norvegicus with 8 samples.

Results

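The circadian clock genes examined here are 10 genes of the daily transcription loop: Per1, Per2, Per3, Cry1, Cry2, Nr1d1, Nr1d2, Dbp, Tef and Clock. They were taken by name, as every probe set (a group of short probes for 1 transcript on an Affymetrix array) whose only gene symbol in the platform annotation is one of these 10. This gave 20 probe sets of 31099 on the array, and each of the 10 genes had at least 1. Of the 20, 16 passed a filter on low signal and were tested.

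RNA came from a fast-twitch muscle of the lower hind limb, the tibialis anterior, in adult Sprague-Dawley rats with an initial weight of 200 ± 40 g, 1 array per rat. The hyperthyroid group held 4 rats injected intraperitoneally with triiodothyronine (T3, the active thyroid hormone) at 25 µg per 100 g every 2 days for 6 weeks and killed 24 hours after the last dose, which models a chronic excess by repeated bolus injection. The control group held 4 untreated rats, for which no vehicle injection is described. Each group had 3 males and 1 female, and the labels give neither the sex of an array nor the time of day at which a muscle was taken. The comparison asked how the muscle transcriptome differs after prolonged T3 excess, and among these genes how clock partners stood to each other on the same arrays.

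In the clock, CLOCK pairs with BMAL1 or its relative NPAS2 and binds E-boxes to switch on the Per and Cry genes, whose proteins return to block that pair. The same activators drive Nr1d1 and Nr1d2, whose REV-ERB proteins repress Bmal1 through ROR elements, and Dbp, Tef and Hlf, whose proteins bind D-boxes in output genes. In skeletal muscle, as in other tissues, transcripts driven by E-boxes, such as Nr1d1, Dbp and Per3, peak far from Bmal1 and Npas2 in the daily cycle, while Clock changes little in many tissues.

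The values are scaled intensities, and array medians ran from 38.8 to 54.9, the highest on control replicate 11. All 6 skeletal muscle markers passed the filter, and their summed intensity ran from 155424 to 204150 on hyperthyroid and from 222706 to 241883 on control arrays. Summed slow-fibre markers (7 of 7 genes) ran from 430 to 7989 on hyperthyroid and from 3526 to 42087 on control arrays, with the highest sums, 42087 and 28442, on control replicates 7 and 11. Summed smooth muscle markers ran from 748 to 851 on hyperthyroid and from 923 to 1599 on control arrays, whereas the ranges overlapped for Schwann cell, endothelial, adipocyte and macrophage markers. The part of these markers in the results was not tested. In a bulk muscle, fewer cells of a type and less RNA per cell cannot be told apart. With 4 arrays a group, the number of arrays limits every value below.

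DNA elements of the loop were looked for in the RefSeq promoter windows of build GRCr8, 250 bases before to 50 after each annotated start, on both strands. The letters searched were CACGTG for an E-box, TTATGTAA or TTACGTAA for a D-box and TAGGTCA or TGGGTCA for a REV-ERB and ROR element, and the motifs found here did not overlap. Windows were at hand for 9 of the 10 members, and 3 of these genes held a match, as did Bmal1. Those 4 windows are printed because they join genes whose transcripts are set in pairs further on, with the match in capitals. They are chr1:176766078-176766377 (plus strand) for Bmal1, chr10:84229405-84229704 (minus strand) for 1 of the 2 annotated starts of Nr1d1, chr9:99496944-99497243 (minus strand) for Per2 and chr7:115206577-115206876 (plus strand) for Tef.
Bmal1: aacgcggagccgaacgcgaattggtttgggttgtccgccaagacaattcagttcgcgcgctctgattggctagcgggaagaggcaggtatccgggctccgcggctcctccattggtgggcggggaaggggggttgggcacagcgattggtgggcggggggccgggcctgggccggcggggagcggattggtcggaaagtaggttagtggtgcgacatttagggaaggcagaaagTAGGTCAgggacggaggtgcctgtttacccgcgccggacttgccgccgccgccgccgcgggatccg
Nr1d1: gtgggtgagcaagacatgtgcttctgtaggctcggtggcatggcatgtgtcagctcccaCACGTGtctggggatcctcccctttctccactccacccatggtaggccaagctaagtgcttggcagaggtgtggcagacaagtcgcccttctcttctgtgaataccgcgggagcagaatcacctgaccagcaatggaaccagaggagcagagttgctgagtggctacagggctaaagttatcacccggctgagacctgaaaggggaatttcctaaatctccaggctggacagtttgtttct
Per2: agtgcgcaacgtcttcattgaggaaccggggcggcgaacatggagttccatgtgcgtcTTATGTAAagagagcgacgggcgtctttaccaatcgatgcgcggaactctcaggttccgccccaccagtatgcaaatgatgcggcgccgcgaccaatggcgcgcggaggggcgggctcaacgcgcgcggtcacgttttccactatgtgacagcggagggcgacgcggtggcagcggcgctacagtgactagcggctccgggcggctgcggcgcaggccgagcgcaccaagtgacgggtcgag
Tef: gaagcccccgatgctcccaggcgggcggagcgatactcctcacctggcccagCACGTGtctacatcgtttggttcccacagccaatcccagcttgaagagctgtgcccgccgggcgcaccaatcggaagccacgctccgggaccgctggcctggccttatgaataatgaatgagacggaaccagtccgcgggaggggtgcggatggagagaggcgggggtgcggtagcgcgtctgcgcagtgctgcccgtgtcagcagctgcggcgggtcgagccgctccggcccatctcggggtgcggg
The ROR element of Bmal1 began 16 bases before the start, the E-box of Nr1d1 191 and that of Tef 198 bases before it, and the D-box of Per2 192 bases before it. Such letters were in 6.60% (ROR element), 6.42% (E-box) and 1.01% (D-box) of all 33469 windows, so a match describes the window and is not a measured site.

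No clock probe set differed between hyperthyroid and control muscle at a limma adjusted p under 0.05, where 0.0322% of the 18625 tested probe sets did. At an unadjusted limma p under 0.05 there were 3 of 16, a Tef and a Nr1d2 probe set higher and another Nr1d2 probe set lower in hyperthyroid muscle, against a background of 9.68% (4.91% higher and 4.76% lower). The groups did not overlap for 2 of the 16 probe sets, 1 higher and 1 lower, against 6.15% of all probe sets (2.99% higher and 3.16% lower). The median log2 fold change of the 16 was -0.059, with 7 above and 9 below 0, beside -0.0077 over all probe sets, with 9165 above and 9460 below 0. For the 16, the median moved when 1 array was left out. It was -0.28 without control replicate 11 and 0.14 without control replicate 8, while the median over all probe sets was -0.0047 and -0.018. For 6 of the 10 genes, represented by the probe set of highest mean signal, the 95% interval of the log2 fold change lay within -1 to 1. This held for 7 of the 16 tested probe sets. Among those 6 genes, Cry2, Nr1d2 and Clock each had another tested probe set whose interval passed that bound. Where an interval passed it, a change as large as 2-fold in at least 1 direction was not resolved by these arrays.

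**Figure D1:**
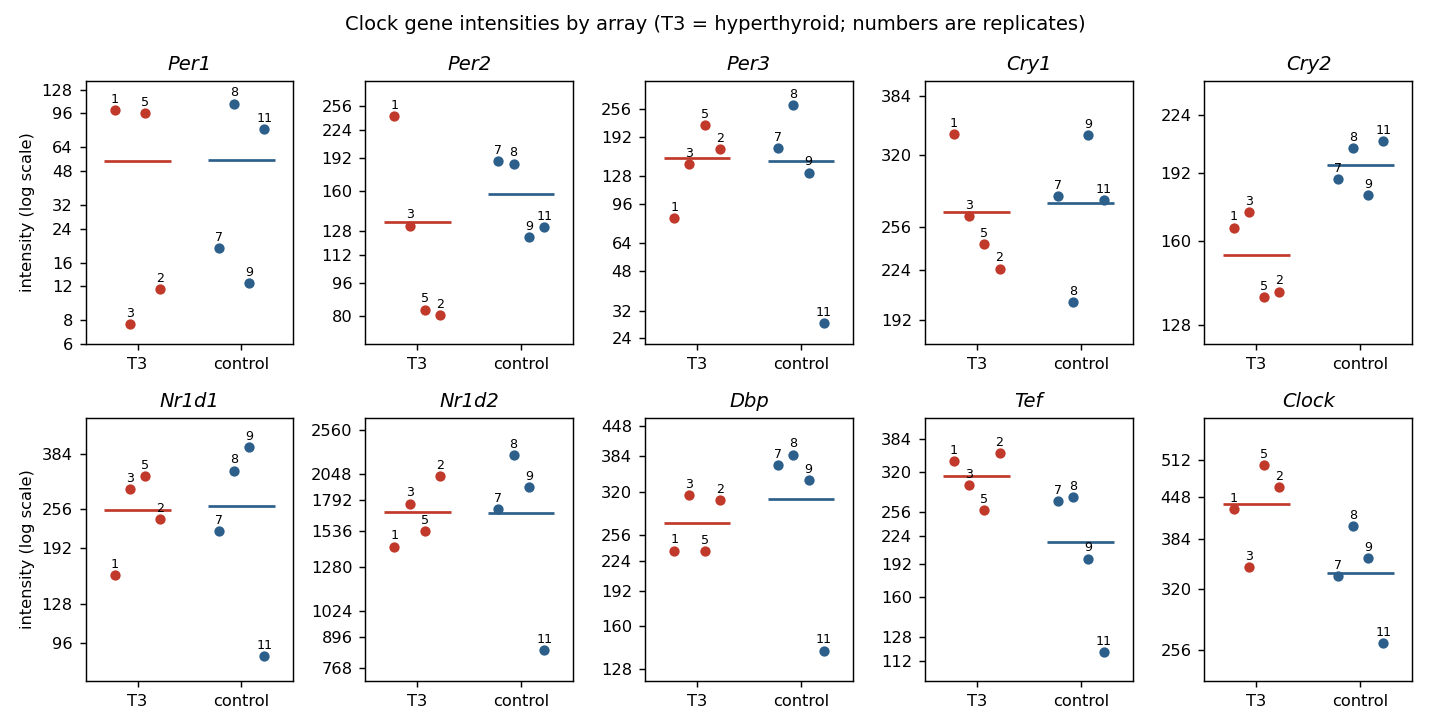
Intensity (log axis, scaled units) of 1 probe set for each of the 10 clock genes on the 4 hyperthyroid (T3) and 4 control arrays, with replicate numbers beside the points and the arithmetic mean of each group as a line. The groups overlap for every gene shown other than Cry2, and control replicate 11 is the lowest array for Per3, Nr1d1, Nr1d2, Dbp, Tef and Clock.

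Among the repressors of the loop, the period genes gave no difference past the test. Values are given below in 1 order throughout, hyperthyroid replicates 1, 3, 5 and 2 and then control replicates 7, 8, 9 and 11. Per1, a fast-responding period gene that is also induced by glucocorticoids, had 100, 7.60, 96.4 and 11.6 on the hyperthyroid arrays, against 19.1, 108, 12.5 and 79.4 on the control arrays. Each group thus held a pair of arrays with high and a pair with low Per1, and the split crossed the treatment. Its spread over the 8 arrays (SD 1.46 on the log2 scale) was larger than that of 99.1% of tested probe sets, and 4 of its 8 values were under 22.4, the intensity at which the filter on mean signal was set. The log2 fold change was -0.24 ± 0.84 (limma SE, adjusted p = 0.954).

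Per2, the period gene most tied to the phase of the clock, had 242, 132, 82.8 and 80.3 on hyperthyroid arrays, against 189, 186, 124 and 131 on control arrays. Hyperthyroid replicate 1 was the highest of all 8, replicate 3 lay inside the control range and the other hyperthyroid arrays lay below it, with a log2 fold change of -0.35 ± 0.33 that was -0.67 without hyperthyroid replicate 1 and -0.16 without hyperthyroid replicate 2. Per3, a period gene that mainly reads out the loop, had 83.4, 145, 218 and 169 on hyperthyroid arrays, against 171, 266, 133 and 28.1 on control arrays. Its log2 fold change of 0.32 ± 0.52 rested on control replicate 11 and was -0.32 without that array. The second probe sets of Per2 and Per3 lay under the filter, with intensities no higher than 10.3 and 40.0.

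The cryptochromes bind the activator pair and hold it inactive. With each member taken at its brightest probe set, they had the smallest spread over the 8 arrays (log2 SD 0.26 for Cry1 and 0.22 for Cry2). Cry1 had 341, 265, 243 and 225 on hyperthyroid arrays, against 282, 203, 340 and 278 on control arrays, a log2 fold change of -0.032 ± 0.21 (95% interval -0.48 to 0.41). Cry2 had 166, 173, 138 and 140 on hyperthyroid arrays, against 189, 205, 181 and 209 on control arrays, so that all 4 hyperthyroid arrays lay below all 4 control arrays. Its mean was 154 ± 18.1 in hyperthyroid against 196 ± 13.4 in control muscle (SD, n = 4 each). This difference, -0.34 ± 0.19 on the log2 scale, did not pass (limma adjusted p = 0.594). In a dimmer Cry2 probe set it was -1.04 ± 0.73, with overlapping groups and a wide spread (intensities from 4.89 to 54.2).

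The REV-ERB genes, which repress Bmal1, gave values that depended on the probe set. Nr1d1 had 158, 297, 326 and 238 on hyperthyroid arrays, against 218, 339, 402 and 87.5 on control arrays. Both its highest and its lowest array were controls, and its log2 fold change was 0.12 ± 0.39 (limma adjusted p = 0.951), or -0.33 without control replicate 11. Nr1d2 had 1418, 1763, 1536 and 2030 on hyperthyroid arrays, against 1717, 2254, 1920 and 838 on control arrays, in its brightest probe set, 1390430_at (log2 fold change 0.080 ± 0.25, or -0.22 without control replicate 11).

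The other probe sets of Nr1d2 pointed apart. In 1370541_at the hyperthyroid arrays had 625, 823, 741 and 971, against 620, 618, 599 and 291 on control arrays, and the groups did not overlap, although the lowest hyperthyroid and the highest control value lay close together (log2 fold change 0.61 ± 0.24, limma adjusted p = 0.443, and 0.35 without control replicate 11). In 1370540_at they had 74.6, 64.3, 54.2 and 47.7, against 61.0, 103, 226 and 118 on control arrays, a log2 fold change of -0.90 ± 0.36 (limma adjusted p = 0.460), which was -0.58 without control replicate 9. Across the 8 arrays 1390430_at and 1370541_at went together (r = 0.80), whereas 1370541_at and 1370540_at did not (r = -0.54). Which of them follows the mature transcript was not tested.

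The 3 output activators of the PAR bZIP family are Dbp and Tef, both members, and Hlf, a related gene of the clock list. Dbp, a transcript of large daily swing in many tissues, had 236, 314, 235 and 306 on hyperthyroid arrays, against 367, 387, 339 and 141 on control arrays. Control replicates 7, 8 and 9 were all above the hyperthyroid arrays and control replicate 11 was below them. The log2 fold change was -0.086 ± 0.28 over all arrays (limma adjusted p = 0.951) and -0.42 without control replicate 11.

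Tef had 340, 298, 259 and 356 on hyperthyroid arrays, against 272, 279, 198 and 118 on control arrays. Means were 313 ± 43.4 in hyperthyroid and 216 ± 75.5 in control muscle (SD, n = 4 each), with a log2 fold change of 0.59 ± 0.26 that did not pass (limma adjusted p = 0.489). It was 0.33 without control replicate 11. The other tested Tef probe set gave 0.70 ± 0.61, and the remaining one, under the filter, gave -0.59.

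Hlf stood out among the related genes, with 4 probe sets of which 3 passed the filter. In 1374709_at the hyperthyroid arrays had 168, 210, 224 and 178, against 60.1, 115, 111 and 98.0 on control arrays, with no overlap (log2 fold change 1.03 ± 0.25, limma adjusted p = 0.229). The other tested Hlf probe sets gave 0.89 ± 0.28 and 0.70 ± 0.23 (limma adjusted p = 0.335 and 0.367), with overlapping groups. The probe sets followed each other over the arrays (r from 0.84 to 0.89). With any 1 array left out these 3 log2 fold changes ran from 0.54 to 1.16, and none passed over all probe sets.

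**Figure D2:**
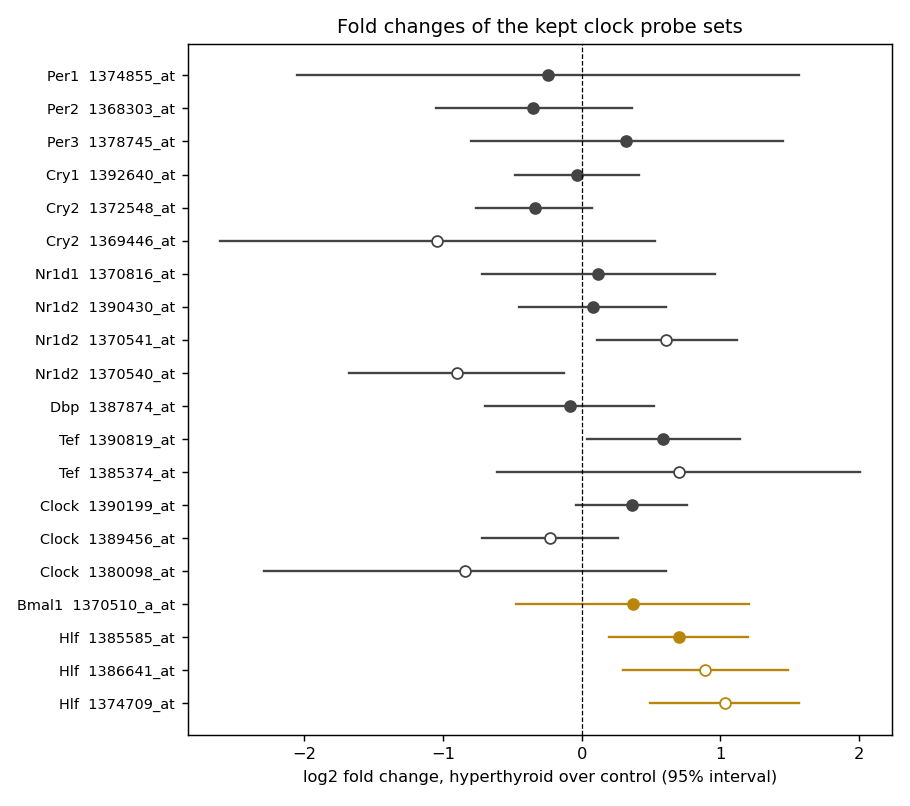
Log2 fold change of hyperthyroid over control with its 95% interval for the 16 tested clock probe sets (grey) and those of Bmal1 and Hlf (gold), filled where the probe set has the highest mean signal of its gene. Most intervals cover 0, those of a Tef, 2 Nr1d2 and 3 Hlf probe sets do not, and probe sets of Nr1d2 and of Clock lie on both sides of 0.

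Among the activators, Clock, the DNA-binding partner of BMAL1, had 428, 346, 504 and 465 on hyperthyroid arrays, against 335, 403, 358 and 262 on control arrays, in its brightest probe set, 1390199_at. The groups overlapped through hyperthyroid replicate 3 and control replicates 8 and 9, and the log2 fold change was 0.36 ± 0.19 (limma adjusted p = 0.559). The other tested Clock probe sets gave -0.23 ± 0.23 and -0.84 ± 0.67, the last carried by a value of 4.88 on hyperthyroid replicate 3, without which it was 0.066. Probe sets 1390199_at and 1389456_at of Clock had an r of 0.0057 over the 8 arrays.

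Bmal1, the partner of CLOCK, had 186, 121, 86.4 and 100 on hyperthyroid arrays, against 53.5, 83.1, 68.8 and 218 on control arrays. Hyperthyroid replicate 1 and control replicate 11 were the highest, and without control replicate 11 all hyperthyroid arrays lay above the controls. The log2 fold change was 0.37 ± 0.39 over all arrays (limma adjusted p = 0.794), 0.78 without that array, 0.16 without hyperthyroid replicate 1 and 0.13 without control replicate 7. Npas2, which can stand in for CLOCK, was dim, with 54.4, 20.1, 32.6 and 5.92 on hyperthyroid arrays, against 5.69, 21.5, 7.70 and 104 on control arrays. It lay under the filter and did not enter the limma fit, and its highest arrays were the same as those of Bmal1.

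Of the other genes of the clock loops, 14 were on the array and 11 passed the filter with 21 probe sets. None was called, 4 had an unadjusted limma p under 0.05 and all 4 were higher in hyperthyroid muscle, where 4.91% of all probe sets were so. They were the 3 of Hlf and 1 of Csnk1d, a kinase that marks PER proteins for decay (log2 fold change 0.48 ± 0.21). The other 4 tested Csnk1d probe sets ran from -0.28 to 0.0085. The related kinase Csnk1e gave 0.51 ± 0.40 and 0.79 ± 0.42, and Btrc, a ubiquitin ligase subunit that acts on PER, gave 0.24 ± 0.23, -0.49 ± 0.30 and 0.30 ± 0.71. Over the 21 probe sets the median log2 fold change was 0.30, with 15 above and 6 below 0. Over all 18625 tested probe sets the median was -0.0077, with 9165 above and 9460 below 0. Several of the 21 measure the same gene (5 Csnk1d, 3 Hlf and 3 Btrc), so they are not independent of each other.

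Array by array, control replicate 11 stood apart from the other arrays. It was the lowest of the 8 arrays for 6 of the 10 members, Per3, Nr1d1, Nr1d2, Dbp, Tef and Clock, whereas it was the lowest for 17.8% of all tested probe sets. Its deviations from the mean of the 8 arrays were -2.08 for Per3, -1.40 for Nr1d1, -0.95 for Nr1d2, -0.97 for Dbp, -1.08 for Tef and -0.53 for Clock on the log2 scale. For the genes of opposed phase they were 1.05 for Bmal1 and 2.14 for Npas2, both the highest of the 8 arrays. The remaining members were not low there, with 1.08 for Per1, -0.059 for Per2, 0.050 for Cry1 and 0.27 for Cry2. For Cry2 this was the highest of the 8 arrays.

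Hyperthyroid replicate 1 lay on the same side to a smaller degree, with -0.62 for Per3, -0.57 for Nr1d1, -0.20 for Nr1d2 and -0.23 for Dbp, against 0.83 for Bmal1 and 1.25 for Npas2. Tef and Clock did not follow there (0.42 and 0.17). Per1, Per2, Cry1 and Cry2 were at 1.40, 0.81, 0.34 and -0.062 on hyperthyroid replicate 1. Dbp was about as low on hyperthyroid replicate 5 (-0.24), where Nr1d1 was at 0.46. Bhlhe41, a clock repressor chosen after its values were seen, was low on hyperthyroid replicate 1 (-1.18) and on control replicate 11 (-1.36). Control replicate 7 shared high slow-fibre signal with control replicate 11. Its deviations were 0.39 for Dbp, 0.39 for Per3, 0.10 for Tef, 0.080 for Nr1d2, -0.11 for Nr1d1 and -0.18 for Clock. They were -0.91 for Bmal1 and -1.42 for Npas2, both the lowest of the 8 arrays. Control replicate 11 was also the highest array for 20.8% of all tested probe sets, the largest share of the 8. The part of its overall divergence, of muscle composition and of the hour of sampling in this pattern was not tested.

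**Figure D3:**
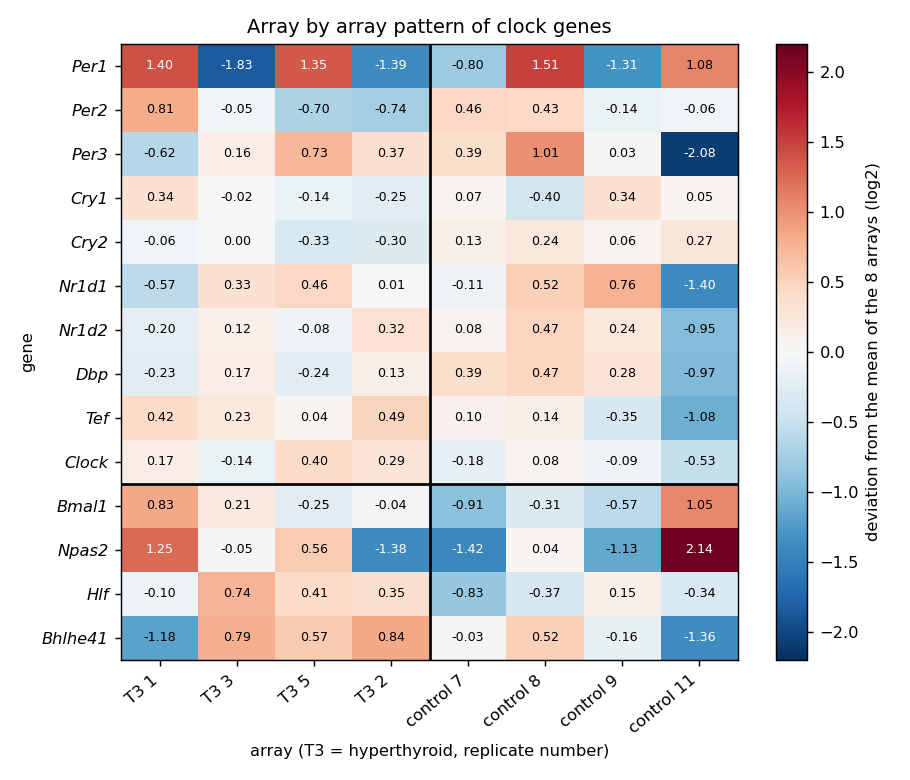
Deviation of each array (columns, hyperthyroid arrays left) from the mean of the 8 arrays on the log2 scale, for the 10 clock genes and for Bmal1, Npas2, Hlf and Bhlhe41. Control replicate 11 has the lowest values of Per3, Nr1d1, Nr1d2, Dbp, Tef and Clock and the highest of Bmal1 and Npas2. Hyperthyroid replicate 1 lies on the same side to a smaller degree in these genes other than Tef and Clock.

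Pairs of clock genes were compared over the 8 arrays, 7 labelled as near and 5 as opposed in daily phase, with 1 probe set a gene. The labels were assigned, and no phase was measured here. For Clock, which changes little in many tissues, the label is weak. The REV-ERB genes Nr1d1 and Nr1d2 went together, with r = 0.86 (exact permutation p = 0.0124, adjusted over the 12 pairs 0.0497) and rho = 0.71 (exact permutation p = 0.0576, adjusted 0.332). Bmal1 and Dbp were opposed, with r = -0.81 (exact permutation p = 0.0119, adjusted 0.0497) and rho = -0.76 (exact permutation p = 0.0368, adjusted 0.332). Npas2 and Dbp were opposed as well, with r = -0.83 (exact permutation p = 0.00742, adjusted 0.0497) and rho = -0.67 (exact permutation p = 0.0831, adjusted 0.332), but the Npas2 probe set lay under the filter and 5 of its 8 values were under 22.4. These were the 3 pairs whose Pearson r passed at an adjusted p under 0.05, two-sided, and no pair passed by rank.

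Dbp with Per3 (r = 0.84, exact permutation p = 0.0210, adjusted 0.0564, rho = 0.55), Nr1d1 with Dbp (r = 0.80, exact permutation p = 0.0235, adjusted 0.0564, rho = 0.55) and Bmal1, whose window above holds the ROR element, with its repressor Nr1d1 (r = -0.75, exact permutation p = 0.0309, adjusted 0.0618, rho = -0.62), lay just past the threshold. Their rank correlations had exact permutation p-values of 0.171, 0.171 and 0.115, each 0.342 after adjustment. Dbp and Tef, whose proteins bind the same D-boxes, had r = 0.63 and rho = 0.19 (exact permutation p = 0.103 and 0.665, adjusted 0.177 and 0.882). In all, 6 of 7 near pairs had r above 0 and 4 of 5 opposed pairs had r below 0.

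The pairs of repressors and the Clock pair showed little. Per1 and Per2 gave r = 0.31 and rho = 0.43, Per2 and Per3 r = -0.15 and rho = -0.095, and Cry1 and Cry2 r = 0.12 and rho = 0.071 (exact permutation p between 0.299 and 0.882, adjusted between 0.513 and 0.882). Cry1 and Dbp gave r = -0.22 and rho = -0.17, and Clock and Dbp r = 0.34 and rho = -0.14 (exact permutation p between 0.401 and 0.752, adjusted between 0.575 and 0.882). The pairs share genes and arrays, so they are not independent of each other. Each gene entered by its brightest probe set, and the other probe sets were not set in pairs. With the brightest, the other tested ones had r = 0.80 and -0.10 for Nr1d2 and 0.24 for Tef. For Clock r was 0.0057 and 0.22, and for Cry2 it was 0.36.

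Most of the calls were lost when any 1 of 7 arrays was left out, and the size of r moved most without control replicate 11. No pair passed without hyperthyroid replicate 1, 2 or 3 or control replicate 9 or 11 (adjusted exact permutation p). Without control replicate 7 and without control replicate 8, 1 pair passed each time, and 5 passed without hyperthyroid replicate 5. The single passes were Npas2 with Dbp in 1 case and Bmal1 with Nr1d1, not among the 3 main calls, in the other. With any 1 array but control replicate 11 left out, r stayed between 0.85 and 0.92 for Nr1d1 with Nr1d2, between -0.87 and -0.79 for Bmal1 with Dbp and between -0.92 and -0.81 for Npas2 with Dbp. Without control replicate 11 no pair passed by Pearson r, adjusted or unadjusted (exact permutation p of at least 0.110 over 7 arrays), and r was 0.55 for Nr1d1 with Nr1d2, -0.65 for Bmal1 with Dbp and -0.67 for Npas2 with Dbp. The signs of all 5 opposed pairs were then below 0, with Clock and Dbp at -0.67, and those of 5 of 7 near pairs above 0, with Dbp and Tef at -0.31. Without the 2 arrays farthest from the median of the first gene, r was 0.14 for Nr1d1 with Nr1d2, -0.39 for Bmal1 with Dbp, -0.60 for Npas2 with Dbp and 0.88 for Dbp with Per3 (adjusted exact permutation p of at least 0.350 over 6 arrays). For Nr1d1 with Dbp it was -0.091 and for Bmal1 with Nr1d1 it was 0.12. Leaving out the arrays farthest in the first gene narrows its range, which by itself tends to weaken r. These values therefore do not show on which arrays a relation rests. Dbp with Tef was then at -0.53 and Cry1 with Dbp at 0.15. In all, 5 of 7 near pairs had r above 0 there and 3 of 5 opposed pairs had r below 0. After group means were subtracted, all 12 pairs kept the sign of r, with 0.86, -0.82 and -0.83 for the 3 pairs that passed and 0.89 for Dbp with Tef. This step removes the difference between groups and not the distance of control replicate 11 from its group. These values therefore do not show that a relation holds without that array. Within 1 group there are 4 arrays, too few for a correlation.

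**Figure D4:**
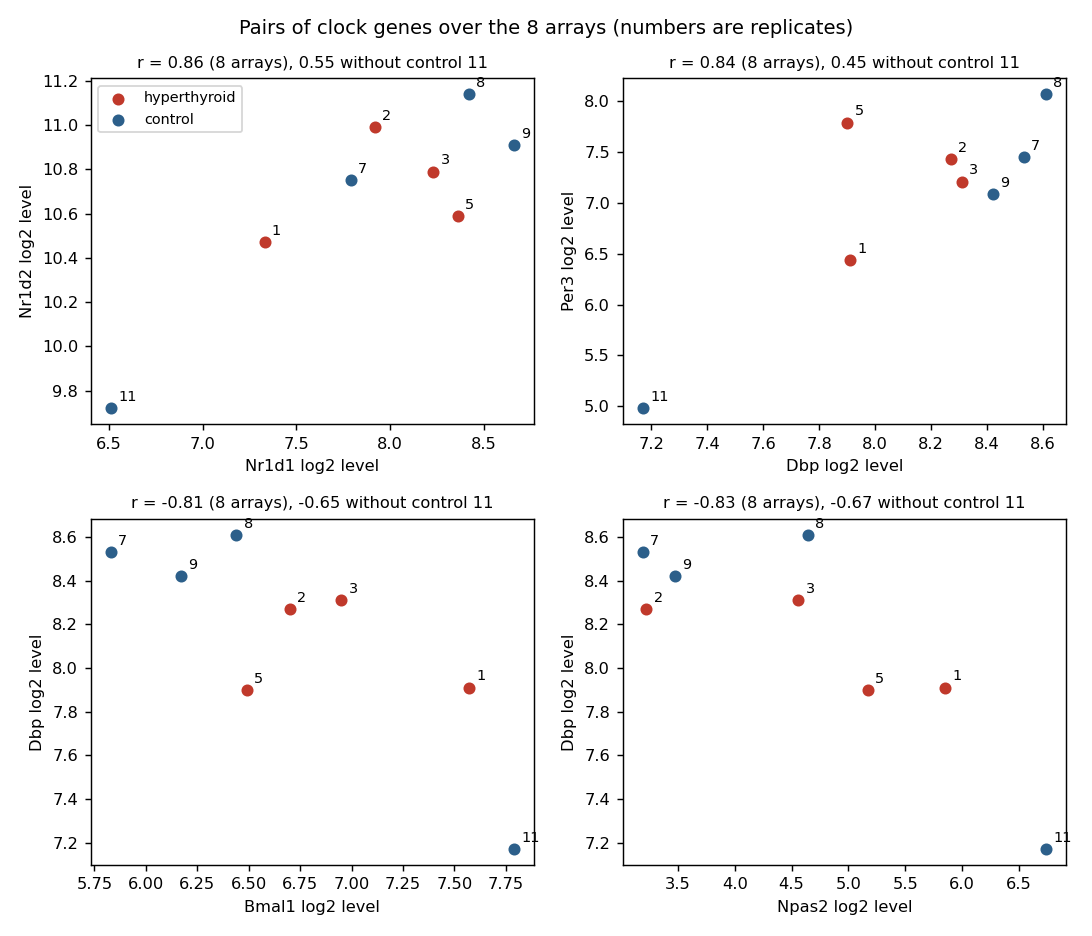
Log2 levels of 4 pairs of clock genes on the 8 arrays, hyperthyroid in red and control in blue, with replicate numbers. Control replicate 11 lies at one end of every pair, low in Nr1d1, Nr1d2, Dbp and Per3 and high in Bmal1 and Npas2.

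**Figure D5:**
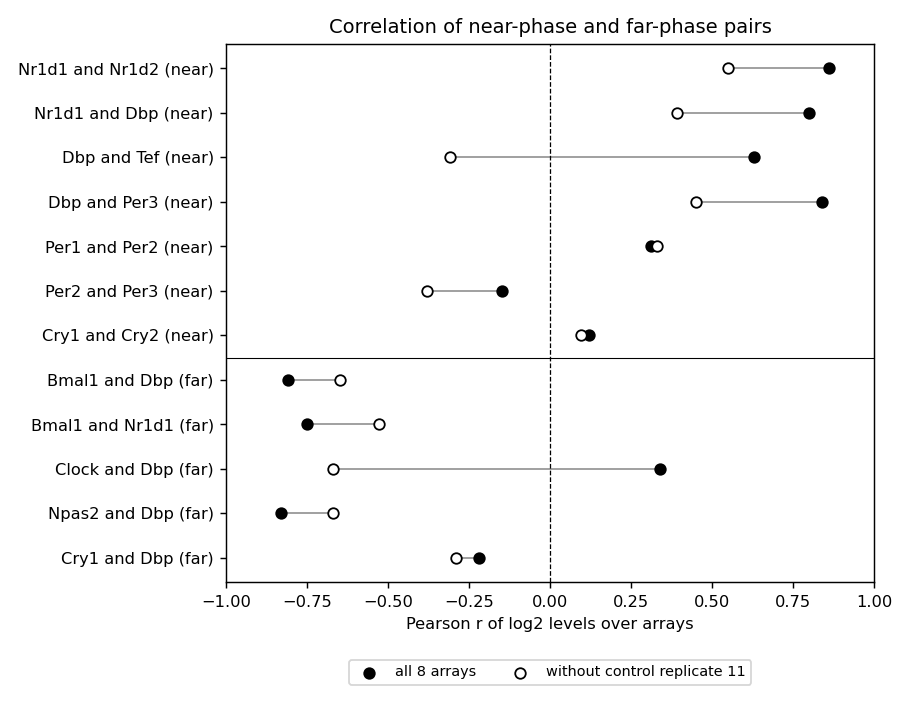
Pearson r of the 12 pairs over all 8 arrays (filled) and without control replicate 11 (open), near pairs above the line and opposed pairs below it. All 4 near pairs with r above 0.6 have a lower r without that array, and the sign changes for Dbp with Tef and for Clock with Dbp.

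The balance within pairs was compared between groups as well. The contrast was the log2 level of the first gene minus that of the second on each array, compared between groups with an exact permutation test over the 70 ways to split 4 and 4 arrays, whose smallest two-sided p is 0.0286. A single contrast at that p has an adjusted p of 0.343 over the 12 pairs, so 1 contrast alone could not pass after adjustment. Dbp minus Tef averaged -0.20 with an SD of 0.25 on the 4 hyperthyroid arrays, against 0.48 with an SD of 0.21 on the 4 control arrays, a difference of -0.68 with no overlap of groups and the smallest p the test can give (exact permutation p = 0.0286, adjusted over 12 pairs 0.343). With 1 array left out the difference ran from -0.77 to -0.57. Its sign could not turn there, because the groups do not overlap. The other 11 contrasts differed by -0.67 to 0.46 with exact permutation p-values of at least 0.200.

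The genes whose pattern over the 8 arrays was most like that of Dbp, among 10190 other genes tested, were Synj2bp (r = 0.976), Ktn1 (0.971) and Ric8a (0.959). For Nr1d1 they were Mylk2 (0.974), Cops4 (0.971) and Vamp1 (0.970), and for Clock they were Ubd (0.952), Ddx24 (0.944) and Mpv17 (0.930). An r above 0.9 was reached by 30 genes with Dbp, 43 with Nr1d1 and 16 with Clock. These are the highest values among many genes over 8 arrays and are given as a description.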

How the data were processed

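The authors deposited 1 intensity per probe set and array on a linear scale, made with GCOS (Affymetrix) per the submitters' processing notes, which state no version or settings. Every array had a mean of 150 after 2% of values were left out at each end, as when each array is scaled to 1 target, so differences in total RNA are not in these values.

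Intensities were taken as log2(intensity + 3.41), the 10th percentile of all values being the pseudocount, and fold changes on that scale understate those of low transcripts. Leaving out 57 control probe sets, 18625 probe sets with a mean log2 level above the 40th percentile (4.69) were tested with limma 3.58.1 in R 4.3.3 (eBayes with a variance trend, two-sided, Benjamini-Hochberg at 0.05 over all of them). Pairs were tested with exact permutations in Python 3.11.15 with scipy 1.17.1. Scripts were tested on simulated data. Symbols are those of the platform annotation. Alternatives were other normalizations, pseudocounts, filters and variance models, 1 probe set a gene, and arrays left out. The members, lists, pairs and motifs were chosen with earlier results of these data known. Named are all members, the other clock genes in a pair or of smallest p, up to 3 of each further list, and 3 genes most like Dbp, Nr1d1 and Clock. Whether arrays of a group are otherwise independent is as the labels say, 1 array per rat.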

Additional observations from a re-analysis of the deposited data

Results flagged for a closer look

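In 5 of 42 groups of 4 arrays examined, 1 array lay far from the other 3 (by Dixon's test on log2 levels at its 95% critical value). About 1 in 20 is the share for independent normal values. The 42 groups share genes and arrays, and the share over all probe sets is not given here. Values below are intensities, on which the test was not run. Dbp was at 141 on control replicate 11 against 339 to 387 on the other controls, and the Nr1d2 probe set 1370541_at was at 291 there against 599 to 620. A dim Cry2 probe set, 1369446_at, was at 14.0 on control replicate 7 against 43.9 to 54.2. The Clock probe set 1380098_at was at 4.88 on hyperthyroid replicate 3 against 80.2 to 113 on the other hyperthyroid arrays. The Hlf probe set 1386641_at was at 132 on hyperthyroid replicate 1 against 267 to 288.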

How the results depend on the processing

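No clock probe set and no other clock probe set was called under any of the 18 alternatives. The pairs were run under 13 of these alternatives. No pair contrast was called there either, which says nothing of stability because 1 contrast alone could not pass the adjusted test. The pair correlations called numbered 3 in the main setting, 5 after quantile normalization, 0 after centring on array medians (r then 0.89 for Nr1d1 with Nr1d2, -0.56 for Bmal1 with Dbp and -0.71 for Npas2 with Dbp), 0 without control replicates 7 and 11, and 0 to 5 with 1 array left out. Clock probe sets at an unadjusted limma p under 0.05 numbered 0 to 4 with 1 array left out, and 1 without the variance trend, with 1 probe set a gene or without control replicates 7 and 11. Over all probe sets, 6 were called in the main setting, against 19 after centring, 16 with no filter, 10 with array weights, 4 with the floor, 4 with the 60th-percentile filter, 0 without the variance trend, 1 without control replicates 7 and 11, and 0 to 6 with 1 array left out (0 without hyperthyroid replicate 3 or control replicate 7). Centring moved the median of all probe sets to 0.21, so Cry1 (0.19), Dbp (0.14) and a Csnk1d probe set (0.058) turned above 0 yet lay below that median, and r turned to 0.054 for Per2 with Per3 and 0.15 for Cry1 with Dbp. Quantile normalization turned a Csnk1d probe set to -0.036, and array weights turned Cry1 to 0.0037 and Nr1d2 to -0.0093. Without control replicates 7 and 11, log2 fold changes turned to -0.36 for Per3, 0.013 for Cry1, -0.58 for Nr1d1, -0.32 for Nr1d2, 0.13 for a Csnk1d and -0.012 for a Btrc probe set, r turned to -0.30 for Dbp with Tef and -0.59 for Clock with Dbp, and contrasts turned to -0.26 (Nr1d1 minus Nr1d2), -0.16 (Nr1d1 minus Dbp) and 0.042 (Per2 minus Per3). With 1 array left out, log2 fold changes that changed sign ran from -0.74 to 0.33 for Per1, -0.32 to 0.71 for Per3, -0.17 to 0.075 for Cry1, -0.33 to 0.39 for Nr1d1, -0.22 to 0.25 for Nr1d2, -0.42 to 0.056 for Dbp, -1.21 to 0.066 for Clock 1380098_at, -0.077 to 0.11 for a Csnk1d and -0.33 to 0.67 for a Btrc probe set. The r values that changed sign ran from -0.31 to 0.76 (Dbp and Tef), -0.38 to 0.0078 (Per2 and Per3), -0.12 to 0.53 (Cry1 and Cry2), -0.67 to 0.56 (Clock and Dbp) and -0.42 to 0.030 (Cry1 and Dbp). Contrasts that did so ran from -0.14 to 0.22 (Nr1d1 minus Nr1d2), -0.56 to 0.72 (Per1 minus Per2), -0.17 to 1.11 (Bmal1 minus Nr1d1), -0.28 to 1.36 (Npas2 minus Dbp) and -0.23 to 0.40 (Cry1 minus Dbp). The cause of these changes was not tested. No paired analysis was possible because the groups share no replicate number.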

Other observations

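Genes near the clock gave no call either. Of 16 tested probe sets of clock output and clock-linked genes, none passed, and 3 higher and 1 lower had an unadjusted limma p under 0.05 (4.91% and 4.76% of all probe sets). Nampt, the rate-limiting enzyme of NAD salvage, averaged 855 ± 121 in hyperthyroid and 659 ± 35.6 in control muscle in 1 probe set and 198 ± 51.6 and 128 ± 35.0 in another (SD, n = 4 each), and in both the groups did not overlap (log2 fold change 0.36 ± 0.15 and 0.63 ± 0.26, limma adjusted p = 0.459 and 0.469). Por, the electron donor of cytochromes P450, had probe sets that pointed apart. The brighter one averaged 96.3 ± 37.2 in hyperthyroid and 109 ± 9.75 in control muscle (SD, n = 4 each, log2 fold change -0.24 ± 0.29), and the dimmer one 81.6 ± 25.6 and 30.4 ± 21.4 (1.71 ± 0.65, limma adjusted p = 0.443), with control replicate 7 at 1.75. Tcap, a Z-disc protein, averaged 21495 ± 3431 in hyperthyroid and 28804 ± 5977 in control muscle, with overlapping groups (limma adjusted p = 0.478).

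Glucocorticoid-responsive genes, a list that shares Per1 with the members, had none of 8 tested probe sets at an unadjusted limma p under 0.05 and a median log2 fold change of 0.12. Those of smallest p were Mt2A, a metallothionein (0.55 ± 0.28), Sgk1, a kinase (0.35 ± 0.21), and Tsc22d3, also in the output list (0.15 ± 0.14). Of 12 tested probe sets of T3-responsive genes, 6 had an unadjusted limma p under 0.05, all higher in hyperthyroid muscle, where 4.91% of all probe sets were so, and none passed. They include 1 of 3 probe sets of Thrsp, a regulator of lipogenesis (1.68 ± 0.45, against 0.19 ± 0.48 and 0.18 ± 0.71 in the others), and probe sets of the sodium pump subunit Atp1b2 (0.89 ± 0.29) and of the glycerophosphate dehydrogenase Gpd2 (0.88 ± 0.30). The 12 probe sets measure 6 genes, so they are not independent of each other, and not every gene of the list is among those at that p.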
